A study of Mus musculus with 21 samples.

Results

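The gene set described here is made of 40 genes of G2 and mitosis, chosen by symbol from a deposited table of log2 expression that lists 20900 genes. They were chosen as targets of repression through p21, a cyclin-dependent kinase inhibitor. Whether each of them is such a target was not tested. All 40 were found in the table, and all 40 were among the 14666 genes that passed the filter on low values. The lowest read number of any member in any library was 645, for Cdc25c. The samples were E14 cells, a mouse embryonic stem cell line of the 129 strain, grown with leukaemia inhibitory factor (LIF) and plated a day before treatment. BMH-21 or CX-5461, each at 1 µM, was added to the cells. They are small molecules that inhibit RNA polymerase I, and the cells were collected at 2, 4 or 8 h. A single untreated group, taken at 0 h, is the control of every comparison with control, so time in culture and treatment cannot be told apart. Each of the 7 groups had 3 libraries of poly(A) RNA, 21 in all, and the labels do not say whether these came from separate cultures. The p-values therefore measure only the spread between these samples.

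Entry into mitosis is driven by cyclin B bound to the kinase CDK1, and the genes for both, with those for the spindle, the kinetochore and the checkpoint that watches them, are transcribed in a wave late in the cell cycle. The factors B-MYB and FOXM1 activate this wave through a protein core called MuvB. When p53 raises p21, cyclin-dependent kinases are inhibited and MuvB instead joins the RB-like proteins and E2F4 in the DREAM complex, which represses the same genes. MuvB is known to bind a short promoter element, the cell cycle genes homology region or CHR, often with CCAAT boxes, bound by NF-Y, further from the start. Embryonic stem cells divide fast, with short gap phases. No sample lacked p53 or p21, so the dependence of any change on them was not tested.

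These elements could be looked for in the promoters of 33 members, taken from RefSeq (GRCm38.p6) as 250 bases before to 50 bases after each start. The start is that of a transcript, and it lay within 5 bases of the outer end of the annotated gene for 18 of the 33 members. The CHR letters TTTGAA, on either strand, were in 22 of the 33 (66.7%), against 20.2% of the 27025 genes with a promoter window. Within 50 bases on either side of the start they were in 20 of 33 (60.6%), against 5.72% of genes. With the variants TTCGAA and TTTAAA and CTTGAA included, 28 of 33 held a match in the whole window (84.8%, against 40.8%). CCAAT was in 24 (72.7%, against 41.1%), and both TTTGAA and CCAAT were in 19 (57.6%, against 7.97%). An E2F core (TTCCCGC or TTCGCGC or TTGCCGC or TTGGCGC) was in 4 members (12.1%), a share close to the 10.9% of all genes. Only these exact letters were searched, so any E2F site with other letters was not counted. A match is a description of letters, not of binding.

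The sequences below show the arrangement in members on which the results turn, as the 120 bases before the start, read 5′ to 3′ on the gene's strand. The stretch of Mybl2 lies inside the annotated gene, as do 39 of the 120 bases of Espl1. Capitals mark TTTGAA and CCAAT, or their reverse complements TTCAAA and ATTGG. They are shown because Cdk1, Cdc20, Espl1 and Ube2c have the arrangement known for this gene class, with a CHR near the start and CCAAT boxes close by. Ckap2, which was higher than control in every treated group, carries both elements in another order. Mybl2, among the members with the deepest falls, carries neither TTTGAA nor CCAAT in the stretch before this start. Other elements, E2F sites among them, are not marked in these sequences.
Cdk1, chr10:69352913-69353032, minus strand: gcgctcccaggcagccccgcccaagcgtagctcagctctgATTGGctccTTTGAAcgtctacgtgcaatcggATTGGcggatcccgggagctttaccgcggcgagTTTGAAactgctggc
Cdc20, chr4:118437344-118437463, minus strand: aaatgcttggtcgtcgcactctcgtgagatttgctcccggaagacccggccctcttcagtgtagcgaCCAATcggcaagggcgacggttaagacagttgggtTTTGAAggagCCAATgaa
Espl1, chr15:102296173-102296292, plus strand: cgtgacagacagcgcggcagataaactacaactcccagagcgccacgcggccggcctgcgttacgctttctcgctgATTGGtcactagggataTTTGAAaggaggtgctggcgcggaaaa
Ube2c, chr2:164769809-164769928, plus strand: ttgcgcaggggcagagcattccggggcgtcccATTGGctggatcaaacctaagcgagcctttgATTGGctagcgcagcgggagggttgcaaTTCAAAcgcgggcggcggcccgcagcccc
Ckap2, chr8:22185820-22185939, minus strand: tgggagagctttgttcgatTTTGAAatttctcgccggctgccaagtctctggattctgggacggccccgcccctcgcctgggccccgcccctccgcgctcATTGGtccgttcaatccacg
Mybl2, chr2:163054515-163054634, plus strand: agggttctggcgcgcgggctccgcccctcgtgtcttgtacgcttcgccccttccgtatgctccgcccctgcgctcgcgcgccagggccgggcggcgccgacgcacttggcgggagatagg
For 4 further members, shown for the kinases and cyclin described below and for a cytokinesis motor, the 30 bases around the TTTGAA nearest to the start read as follows. Those of Plk1, Aurka and Kif23, and 22 bases of Ccnb2, also lie inside the annotated gene.
Plk1, chr7:122159453-122159482, plus strand: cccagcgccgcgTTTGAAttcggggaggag
Ccnb2, chr9:70421533-70421562, minus strand: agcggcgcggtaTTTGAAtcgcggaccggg
Aurka, chr2:172370521-172370550, minus strand: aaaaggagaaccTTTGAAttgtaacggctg
Kif23, chr9:61946780-61946809, minus strand: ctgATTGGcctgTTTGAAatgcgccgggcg

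The deposited values are log2 reads per effective library size, and the size factors in them, from 0.832 to 1.38 over the 21 libraries, move all genes of a library together. Each difference is therefore given on the deposited scale and again after each library was centred on its median gene, called centred below. Centring removed -0.076, -0.15 and -0.21 from the log2 differences at 2, 4 and 8 h of BMH-21, and -0.15, -0.16 and 0.22 from those of CX-5461. Libraries held 46604397 to 62812641 reads. The 8 embryonic stem cell markers examined were all present, with summed levels of 5466 to 5523 CPM (reads scaled to a common library total) in the control. They were 3569 to 3806 at 4 h and 3460 to 3906 at 8 h of BMH-21, and 3853 to 3945 at 4 h and 5018 to 5069 at 8 h of CX-5461. The log2 fold changes of single stem cell markers at 8 h varied. With BMH-21 Esrrb was -2.28, Zfp42 -2.21, Nanog -2.13, Klf4 -1.35, Sox2 -1.18, Pou5f1 -0.94, Tdgf1 -0.58 and Dppa5a -0.54. With CX-5461, in the same order, they were -0.75, -0.74, -0.26, -0.43, -0.12, -0.35, 0.37 and 0.053. Fibroblast markers summed to 30.1 to 31.8 CPM in the control, 55.2 to 60.8 after 8 h of BMH-21 and 44.2 to 46.9 after 8 h of CX-5461, with Lum at 0 to 2 reads and Postn at 0 to 14 reads in any library. The fibroblast markers did not move together. At 8 h of BMH-21 and CX-5461, in that order, Col1a1 was 1.86 and 1.24, Thy1 -1.41 and -0.13, and Pdgfrb 0.29 and 1.00 on the log2 scale. Markers of early differentiated cells summed to 8.62 to 10.2 CPM in the control, 15.0 to 15.8 after 8 h of BMH-21 and 12.7 to 13.4 after 8 h of CX-5461. These markers did not move together either. At 8 h of BMH-21 Cdx2 was 1.36, Gata6 0.65, Sox17 0.27, Sox1 0.055, T -0.60 and Gata4 -0.70 on the log2 scale. At 8 h of CX-5461, in the same order, they were 1.26, 0.72, 0.36, 0.20, 0.47 and -0.24. The part of these shifts in the results was not tested.

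Cdkn1a, the gene for p21, was high in every treated group. Cdkn1a stood at 5.26, 5.32 and 5.11 in the control libraries. With BMH-21, Cdkn1a was 7.79, 8.00 and 7.91 at 2 h, 8.08, 7.81 and 7.89 at 4 h and 7.66, 7.62 and 7.78 at 8 h. With CX-5461, Cdkn1a was 7.84, 7.59 and 7.64 at 2 h, 7.18, 7.30 and 7.15 at 4 h and 7.13, 7.02 and 7.15 at 8 h. No treated library overlapped the control, and the highest levels came with BMH-21. The log2 fold change over control (control mean 5.23 ± 0.11, SD, n = 3) was 2.67, 2.70 and 2.46 at 2, 4 and 8 h of BMH-21. With CX-5461 it was 2.46, 1.98 and 1.87. In limma with Benjamini-Hochberg adjustment over all genes tested, the adjusted p was at most 1.1e-34 in each. BMH-21 gave more than CX-5461 at 4 h by 0.72 (SE 0.10, adjusted p 3.3e-08) and at 8 h by 0.58 (SE 0.10, adjusted p 3.5e-07), in the limma fit. At 2 h the inhibitors differed by 0.21 (adjusted p 0.34, and 0.026 centred).

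As a share of all reads, which the size factors do not touch, the 40 members together took 6863 to 6959 CPM in the control. The share was 6809 to 6889 after 2 h of BMH-21, 6279 to 6462 after 4 h and 6281 to 6534 after 8 h. It was 6309 to 6339 after 2 h of CX-5461, 5431 to 5542 after 4 h and 6204 to 6296 after 8 h. All groups but 2 h of BMH-21 lay below the control without overlap, and 4 h of CX-5461 was lowest. In bulk RNA, fewer cells in G2 or mitosis and less RNA of these genes per cell cannot be told apart.

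With BMH-21 most calls among the members came at 4 h and 8 h. At 2 h, limma called 3 of 40 members lower and 1 higher, where 11.2% and 8.48% of all genes tested were called. Espl1, Kif2c and Cenpf were the lower ones and Ckap2 the higher one. At 4 h, 27 were lower and 1 higher, beside 44.9% and 22.1% of all genes. At 8 h, 35 were lower and 1 higher, beside 56.9% and 24.5%. The median log2 fold change of the members was -0.094, -0.35 and -0.61 at the 3 times, and that of all genes tested was -0.075, -0.21 and -0.40. After centring, 8, 25 and 33 members were lower (background 17.5%, 41.5% and 51.3%) and 5, 6 and 3 were higher (background 18.6%, 32.2% and 33.3%). Quantile normalization, which forces every library to 1 distribution, left 20 lower and 8 higher at 8 h, beside 50.7% and 33.5% of all genes. The member median was then -0.11, above the -0.17 of all genes, and 15 of 40 members lay below the median gene, where the deposited scale has 31. The 3 calls at 2 h rest on single libraries, since leaving out control replicate 1, control replicate 2 or BMH-21 replicate 1 left 0 and leaving out BMH-21 replicate 3 left 1.

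With CX-5461 more members were called lower at 2 h, 4 h and, after centring, 8 h than with BMH-21. At 2 h, 24 of 40 were called lower and 1 higher, beside 20.5% and 7.45% of all genes tested. At 4 h the counts were 37 and 1, beside 51.2% and 19.8%. At 8 h they were 14 and 2, beside 14.3% and 35.1%. Members had medians of -0.30, -0.66 and -0.20 against -0.18, -0.28 and 0.11 for all genes as deposited. On that scale, at 8 h the members lay below control while the median gene lay above it. Centred, the 8 h medians were -0.42 for members and -0.11 for all genes. With quantile normalization they were -0.13 and -0.078. Then 25 of 40 members lay below the median gene, where the deposited scale has 36. After centring, 27, 36 and 36 were lower (background 17.8%, 45.7% and 44.7%), and 1, 2 and 1 were higher (background 15.8%, 28.5% and 29.3%). All 14 members called lower at 8 h on the deposited scale were among the 36 called after centring. Leaving out control replicate 1 or 2, or CX-5461 replicate 2 or 3, took the 24 at 2 h to between 12 and 15, and leaving out control replicate 1 or control replicate 2 left 9 of the 14 at 8 h.

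**Figure D1:**
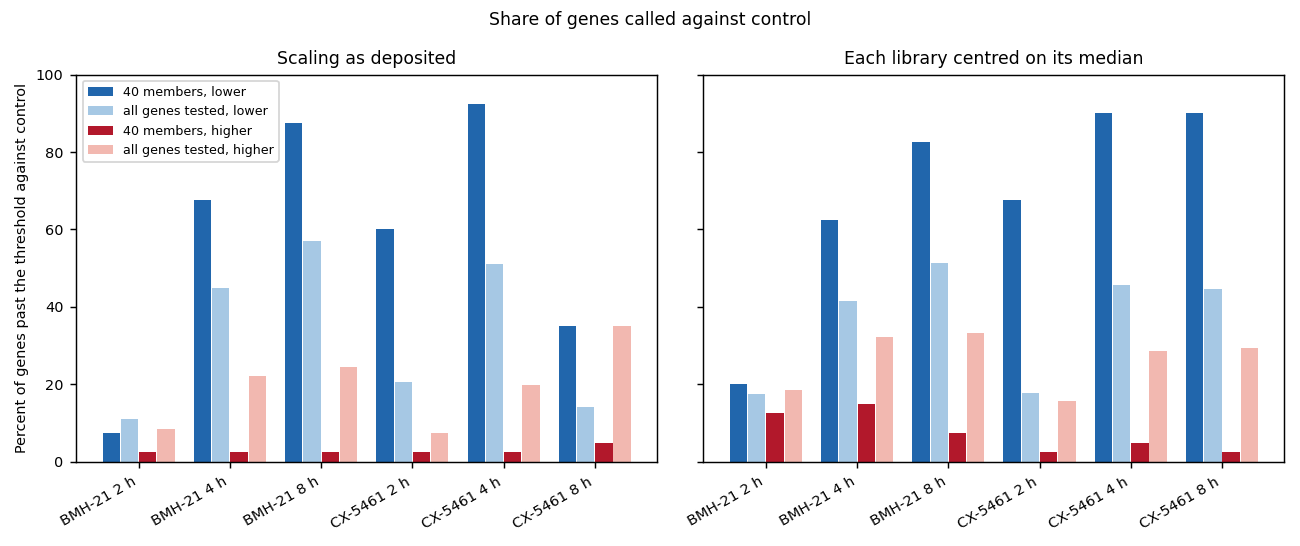
Percent of the 40 members and of all genes tested (vertical axis) called lower or higher than control by limma in each of the 6 treated groups (horizontal axis), on the deposited scale and after centring. At 8 h of CX-5461 the lower share of the members goes from 14 of 40 as deposited to 36 of 40 centred, and with CX-5461 at 2 h and 4 h the members' lower share stands above that of all genes on both scales.

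A library-wide shift leaves the rank of a gene's fold change among all genes as it is. Ranked from lowest to highest, the members' median percentile was 45.3, 37.5 and 37.8 at 2, 4 and 8 h of BMH-21, on a scale where low values are falls. With CX-5461 it was 22.9, 16.8 and 19.6. The lowest 25% of all genes held 6, 12 and 8 members at 2, 4 and 8 h of BMH-21. With CX-5461 it held 22, 26 and 25. Over the 7 groups, the lowest mean was at 4 h of CX-5461 for 22 members and at 8 h of BMH-21 for 16, as deposited. After centring it was at 4 h of CX-5461 for 18, at 8 h of BMH-21 for 12 and at 8 h of CX-5461 for 8. The control held the lowest mean of Ckap2 alone.

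**Figure D2:**
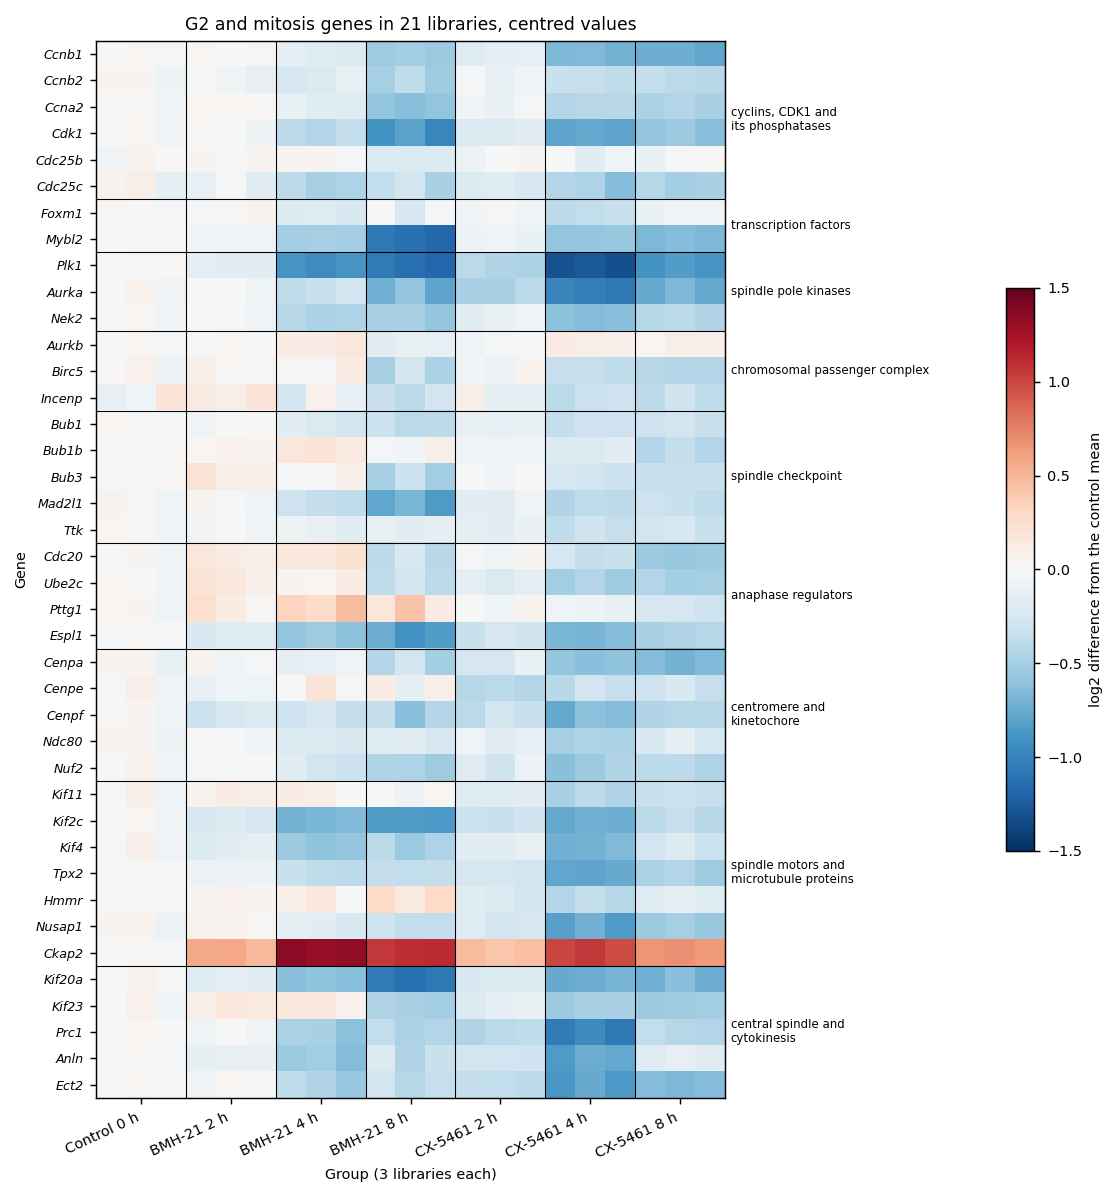
Centred log2 difference of each of the 40 members (rows, grouped by role) from its control mean in each of the 21 libraries (columns, by group), with blue below and red above control. Most rows darken to blue at 4 and 8 h and at 2 h of CX-5461, while Ckap2 is red in all 18 treated libraries.

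The cyclins, CDK1 and its phosphatases were followed first. Counts by role stand beside the share of all genes called lower, which was 56.9% at 8 h of BMH-21 (51.3% centred), 51.2% at 4 h of CX-5461 (45.7% centred) and 14.3% at 8 h (44.7% centred). Limma called 6 of the 6 genes here lower after 8 h of BMH-21 on both scales. After 4 h of CX-5461 5 were lower on both scales, and after 8 h 3 were lower as deposited and 5 centred. Cdk1 (chr10:69335146-69352912, GRCm38.p6) encodes the mitotic kinase. Cdk1 stood at 7.55, 7.57 and 7.33 in the control libraries. With BMH-21, Cdk1 was 7.30, 7.51 and 7.34 at 2 h, 7.10, 6.80 and 6.90 at 4 h and 6.45, 6.32 and 6.36 at 8 h. With CX-5461, Cdk1 was 7.27, 7.03 and 7.10 at 2 h, 6.42, 6.72 and 6.49 at 4 h and 7.15, 7.11 and 7.05 at 8 h. It was lowest at 8 h of BMH-21 and at 4 h of CX-5461, and both groups lay below every control library. The change after 8 h of BMH-21 was -1.10 (SE 0.11, adjusted p 5.6e-18), which leaves 46.5% of the control level, and after 4 h of CX-5461 -0.94 (SE 0.11, adjusted p 6.3e-14). After 8 h of CX-5461 it was -0.38 (SE 0.11, adjusted p 0.0016), and -0.59 (SE 0.042, adjusted p 1.2e-11) centred.

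Ccnb1 (chr13:100778739-100786486) encodes cyclin B1, the partner of CDK1. Ccnb1 stood at 8.76, 8.78 and 8.56 in the control libraries. With BMH-21, Ccnb1 was 8.54, 8.74 and 8.65 at 2 h, 8.56, 8.28 and 8.26 at 4 h and 8.03, 7.83 and 8.02 at 8 h. With CX-5461, Ccnb1 was 8.50, 8.33 and 8.37 at 2 h, 7.75, 8.04 and 7.78 at 4 h and 8.23, 8.14 and 8.13 at 8 h. Its 3 lowest groups were both 8 h groups and 4 h of CX-5461, none of which overlapped the control. Ccnb1 changed by -0.74 (SE 0.10, adjusted p 1.4e-10) after 8 h of BMH-21 and -0.53 (SE 0.10, adjusted p 4.7e-06) after 8 h of CX-5461, with centred values of -0.53 and -0.75, and the first did not pass with quantile normalization (-0.053, adjusted p 0.11). Ccnb2 was 7.21, 7.21 and 6.93 in the control, 6.49, 6.38 and 6.45 after 8 h of BMH-21 and 7.02, 6.90 and 6.92 after 8 h of CX-5461. This second B-type cyclin fell with BMH-21 (log2 fold change -0.68, SE 0.11, adjusted p 6.3e-09). With CX-5461 its difference was -0.17 (adjusted p 0.17) as deposited and -0.39 (SE 0.046, adjusted p 8.9e-08) centred, and the libraries overlapped the control on the deposited scale.

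Ccna2 was 8.03, 8.04 and 7.82 in the control, 7.25, 6.96 and 7.23 after 8 h of BMH-21 and 7.75, 7.70 and 7.69 after 8 h of CX-5461. Cyclin A2 acts in S phase and G2. Ccna2 fell by 0.82 on the log2 scale after 8 h of BMH-21 (SE 0.11, limma adjusted p 1.1e-11). After 8 h of CX-5461 it was -0.25 (SE 0.11, adjusted p 0.043), a call lost when control replicate 1 or 2 or any CX-5461 library was left out, and -0.46 (SE 0.033, adjusted p 1.1e-11) centred. Cdc25b was 5.18, 5.28 and 5.07 in the control, 4.82, 4.60 and 4.83 after 8 h of BMH-21 and 5.34, 5.32 and 5.41 after 8 h of CX-5461. The phosphatase CDC25B activates CDK1. Its gene fell with BMH-21 (log2 fold change -0.42, SE 0.11, adjusted p 2.6e-04), and stood 0.18 above control with CX-5461 (adjusted p 0.17), a difference that turned to -0.037 (adjusted p 0.48) after centring. With median-ratio factors the fall with BMH-21 was -0.033 (adjusted p 0.51). Cdc25c, a related phosphatase gene, was -0.59 and -0.26 in the same comparisons, called with BMH-21 as deposited and with both inhibitors centred.

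The transcription factor genes parted. Mybl2 (chr2:163054327-163084688) encodes B-MYB. Mybl2 stood at 10.10, 10.10 and 9.90 in the control libraries. With BMH-21, Mybl2 was 9.80, 10.01 and 9.92 at 2 h, 9.52, 9.30 and 9.31 at 4 h and 8.83, 8.56 and 8.72 at 8 h. With CX-5461, Mybl2 was 9.95, 9.75 and 9.74 at 2 h, 9.18, 9.46 and 9.26 at 4 h and 9.63, 9.55 and 9.58 at 8 h. The libraries at 8 h of BMH-21 were the lowest, and no library of the 4 h or 8 h groups reached the control. Mybl2 changed by -1.34 (SE 0.10, adjusted p 7.8e-25) after 8 h of BMH-21 (39.6% of control) and by -0.45 (SE 0.10, adjusted p 6.3e-05) after 8 h of CX-5461, and fell on both scales in each. Foxm1 was 6.18, 6.16 and 5.97 in the control, 5.95, 5.50 and 5.93 after 8 h of BMH-21 and 6.26, 6.23 and 6.27 after 8 h of CX-5461. Foxm1, whose product binds with B-MYB to late cell cycle genes, was -0.31 (SE 0.11, adjusted p 0.0087) after 8 h of BMH-21. That value rests on replicate 2 of the group: without it the change was -0.16 (adjusted p 0.2), and centred it was -0.10 (SE 0.047, adjusted p 0.061), and median-ratio factors turned it to 0.084. With CX-5461, Foxm1 fell at 4 h (-0.52, SE 0.11, adjusted p 1.9e-05) and at 8 h was 0.15 (adjusted p 0.26, and -0.064 centred).

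**Figure D3:**
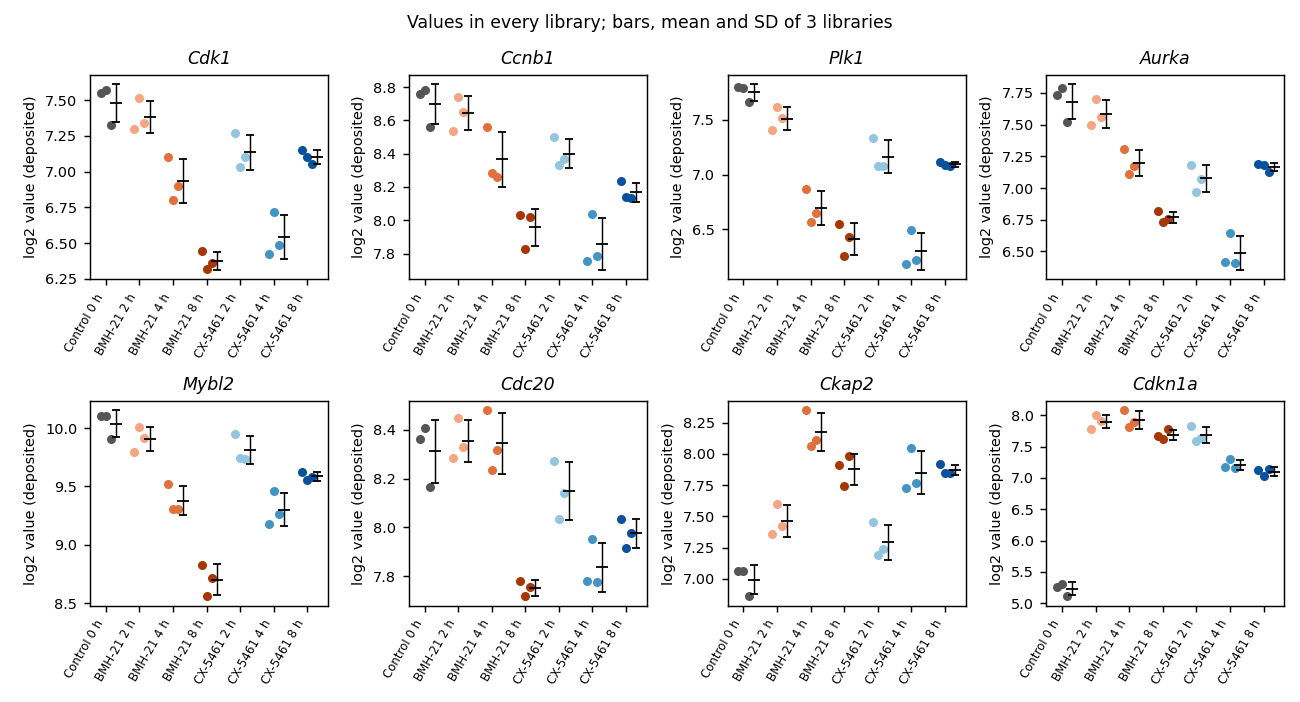
Deposited log2 level (vertical axis) of Cdk1, Ccnb1, Plk1, Aurka, Mybl2, Cdc20, Ckap2 and Cdkn1a in each of the 21 libraries, by group (horizontal axis), with points for libraries and bars for the mean and SD of 3. Plk1 and Aurka drop lowest at 4 h of CX-5461 and Mybl2 at 8 h of BMH-21, while Ckap2 and Cdkn1a lie above the control in every treated group.

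The 3 spindle pole kinase genes were called lower at 4 h and 8 h of BMH-21 and at 4 h of CX-5461 on both scales, beside 44.9%, 56.9% and 51.2% of all genes as deposited. Plk1 (chr7:122159435-122169884) encodes polo-like kinase 1, which acts at centrosomes, kinetochores and the midbody. Plk1 stood at 7.80, 7.79 and 7.66 in the control libraries. With BMH-21, Plk1 was 7.40, 7.62 and 7.52 at 2 h, 6.87, 6.57 and 6.65 at 4 h and 6.55, 6.26 and 6.44 at 8 h. With CX-5461, Plk1 was 7.34, 7.08 and 7.08 at 2 h, 6.18, 6.49 and 6.22 at 4 h and 7.12, 7.08 and 7.08 at 8 h. Every treated group lay below the control without overlap, 2 h of BMH-21 included. At 2 h of BMH-21, 19.5% of all genes did so as deposited, and Plk1 was called lower only after centring. The change was -1.34 (SE 0.11, adjusted p 6.3e-23) at 8 h of BMH-21, -1.45 (SE 0.11, adjusted p 4.9e-25) at 4 h of CX-5461 and -0.66 (SE 0.11, adjusted p 6.3e-08) at 8 h. These 3 leave 39.6%, 36.6% and 63.4% of the control level. Plk1 had the lowest fold change of the 40 members in 4 of the 6 comparisons with control.

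Aurka (chr2:172356190-172370886) encodes Aurora A, which matures centrosomes and helps activate polo-like kinase 1. Aurka stood at 7.74, 7.79 and 7.52 in the control libraries. With BMH-21, Aurka was 7.49, 7.71 and 7.56 at 2 h, 7.31, 7.11 and 7.17 at 4 h and 6.82, 6.73 and 6.76 at 8 h. With CX-5461, Aurka was 7.18, 6.97 and 7.08 at 2 h, 6.42, 6.64 and 6.41 at 4 h and 7.19, 7.18 and 7.13 at 8 h. At 2 h the CX-5461 libraries were already below the control and the BMH-21 libraries were not. Aurka was the lowest member at 2 h of CX-5461, at -0.61 (SE 0.10, adjusted p 1.2e-06), against -0.10 (adjusted p 0.6) with BMH-21. At 8 h it changed by -0.91 (SE 0.10, adjusted p 4.3e-14) with BMH-21 and -0.52 (SE 0.10, adjusted p 1.2e-05) with CX-5461, with -0.70 and -0.73 centred. Nek2 was 7.46, 7.46 and 7.23 in the control, 6.75, 6.54 and 6.65 after 8 h of BMH-21 and 7.22, 7.16 and 7.14 after 8 h of CX-5461. Nek2 encodes a kinase that separates centrosomes. It fell with BMH-21 (log2 fold change -0.73, SE 0.11, adjusted p 4.4e-10), and with CX-5461 was -0.21 (adjusted p 0.095, and -0.42 centred with adjusted p 3.9e-10). Leaving out control replicate 3 brought the deposited value to -0.28 (adjusted p 0.034).

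In the chromosomal passenger complex, which corrects wrong attachments of chromosomes to the spindle, all 3 genes fell after 8 h of BMH-21 on both scales, where 56.9% of all genes did as deposited. Birc5 was 8.06, 8.10 and 7.81 in the control, 7.35, 7.35 and 7.38 after 8 h of BMH-21 and 7.83, 7.73 and 7.76 after 8 h of CX-5461. Birc5 encodes survivin. Its change was -0.63 (SE 0.10, adjusted p 3.4e-08) with BMH-21 and -0.22 (adjusted p 0.076) with CX-5461, or -0.43 (SE 0.052, adjusted p 8.8e-08) centred. With quantile normalization the fall with BMH-21 was -0.054 (adjusted p 0.33). Without control replicate 3 the CX-5461 value was -0.31 (adjusted p 0.017). Aurkb was 6.89, 6.91 and 6.69 in the control, 6.52, 6.36 and 6.57 after 8 h of BMH-21 and 7.13, 7.09 and 7.12 after 8 h of CX-5461. Aurkb encodes the kinase of the complex, Aurora B. It was below the control with BMH-21 (-0.35, SE 0.11, adjusted p 0.0019) and above it with CX-5461 (0.28, SE 0.11, adjusted p 0.02) without overlap. The rise with CX-5461 was 0.067 (adjusted p 0.067) centred and did not pass without control replicate 3, CX-5461 replicate 1 or CX-5461 replicate 3. The fall with BMH-21 was -0.14 centred and turned to 0.043 with median-ratio factors and 0.14 with quantile normalization. Incenp, the scaffold gene, was -0.56 and -0.15 after 8 h of BMH-21 and CX-5461, and with CX-5461 was called lower only after centring.

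Of the 5 spindle checkpoint genes, 4 fell on both scales by 8 h of BMH-21 and 5 by 4 h of CX-5461, beside 56.9% and 51.2% of all genes as deposited. After 8 h of CX-5461 0 were called as deposited and 5 centred, beside 14.3% and 44.7%. Mad2l1 was 7.29, 7.26 and 7.01 in the control, 6.27, 6.14 and 6.21 after 8 h of BMH-21 and 7.14, 7.03 and 7.02 after 8 h of CX-5461. Mad2l1 encodes MAD2, which holds back the anaphase-promoting complex. It fell with BMH-21 (log2 fold change -0.98, SE 0.11, adjusted p 4.3e-15) and was -0.12 (adjusted p 0.34) with CX-5461, or -0.34 (SE 0.044, adjusted p 2.8e-07) centred. Bub1b was 8.31, 8.32 and 8.18 in the control, 8.11, 7.87 and 8.22 after 8 h of BMH-21 and 8.09, 8.08 and 8.04 after 8 h of CX-5461. Bub1b encodes BUBR1 of the same checkpoint. After 8 h of BMH-21 its difference was -0.20 (adjusted p 0.063) as deposited and 0.0083 (adjusted p 0.83) centred. Leaving out control replicate 3 or BMH-21 replicate 3 gave -0.25 (adjusted p 0.038) and -0.28 (adjusted p 0.024). With CX-5461 it was -0.20 (adjusted p 0.1) and -0.42 (SE 0.035, adjusted p 3.2e-10) centred. The kinase genes Bub1 and Ttk were -0.58 and -0.35 after 8 h of BMH-21 and -0.092 and -0.070 after 8 h of CX-5461, and Bub3 was -0.66 and -0.12.

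Regulators of anaphase were split, with Cdc20, Ube2c and Espl1 lower and Pttg1 among the controls at 8 h of BMH-21. Cdc20 (chr4:118432901-118437343) encodes an activator of the complex. Cdc20 stood at 8.36, 8.41 and 8.16 in the control libraries. With BMH-21, Cdc20 was 8.29, 8.45 and 8.33 at 2 h, 8.48, 8.23 and 8.32 at 4 h and 7.78, 7.72 and 7.75 at 8 h. With CX-5461, Cdc20 was 8.27, 8.04 and 8.14 at 2 h, 7.78, 7.95 and 7.78 at 4 h and 8.03, 7.92 and 7.98 at 8 h. With BMH-21 it overlapped the control at 2 h and 4 h and lay below every control library at 8 h, whereas with CX-5461 it lay below them at 4 h already. The changes at 8 h were -0.56 (SE 0.10, adjusted p 4.2e-07) and -0.34 (SE 0.10, adjusted p 0.0036) with BMH-21 and CX-5461. Centred, Cdc20 was above control at 4 h of BMH-21 by 0.18 (SE 0.043, adjusted p 5.8e-04) and at 8 h it was -0.35, a value that quantile normalization turned to 0.069. Ube2c, the gene of the ubiquitin-conjugating enzyme of the complex, was -0.57 and -0.27 at 8 h of BMH-21 and CX-5461, called in both.

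Espl1 was 8.07, 8.10 and 7.91 in the control, 7.15, 6.76 and 7.05 after 8 h of BMH-21 and 7.81, 7.75 and 7.82 after 8 h of CX-5461. Separase, the product of Espl1, cuts the cohesin rings that hold sister chromatids together. Espl1 was among the 3 members lower at 2 h of BMH-21 (-0.28, adjusted p 0.045) and fell (log2 fold change -1.04, SE 0.11, adjusted p 1.2e-16) at 8 h. With CX-5461 at 8 h it was -0.24 (adjusted p 0.054), or -0.45 (SE 0.038, adjusted p 2.9e-10) centred, and without control replicate 3 it was -0.30 (adjusted p 0.028). Pttg1 was 5.90, 5.90 and 5.63 in the control, 5.84, 5.88 and 5.80 after 8 h of BMH-21 and 5.83, 5.73 and 5.72 after 8 h of CX-5461. Securin, the product of Pttg1, inhibits separase. Pttg1 overlapped the control in both 8 h groups, with 0.030 (adjusted p 0.8) for BMH-21 and -0.055 (adjusted p 0.7) for CX-5461. Centring gave 0.24 (SE 0.067, adjusted p 0.002) and -0.27 (SE 0.067, adjusted p 9.6e-04), in opposite directions, and leaving out control replicate 3 turned the deposited value for BMH-21 to -0.059.

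Among the 5 centromere and kinetochore genes, 4 fell on both scales by 8 h of BMH-21 and 5 by 4 h of CX-5461, beside 56.9% and 51.2% of all genes as deposited. Nuf2 was 6.17, 6.24 and 5.96 in the control, 5.54, 5.30 and 5.45 after 8 h of BMH-21 and 6.00, 5.90 and 5.87 after 8 h of CX-5461. Nuf2 is a subunit of the NDC80 complex, which grips microtubules. It changed by -0.69 (SE 0.11, adjusted p 1.8e-08) with BMH-21 and -0.20 (adjusted p 0.13) with CX-5461, or -0.41 (SE 0.053, adjusted p 2.5e-07) centred. Cenpe was 7.24, 7.34 and 7.05 in the control, 7.19, 6.71 and 7.16 after 8 h of BMH-21 and 7.16, 7.15 and 7.07 after 8 h of CX-5461. The kinetochore motor gene Cenpe had its lowest level earlier, at 2 h of CX-5461 after centring (-0.43, SE 0.059, adjusted p 4.0e-06). After 8 h of BMH-21 it was -0.19 (adjusted p 0.11), with replicate 2 of that group low and the other two among the controls, and 0.025 (adjusted p 0.69) centred. It passed without control replicate 3, BMH-21 replicate 1 or BMH-21 replicate 3, at -0.26, -0.27 and -0.26. Cenpa, the centromeric histone gene, was -0.62 and -0.46 at 8 h of BMH-21 and CX-5461, Cenpf -0.69 and -0.22, and Ndc80 -0.41 and 0.0055. These values are as deposited. At 8 h of CX-5461, 1 of the 5 genes, Cenpa, was called lower as deposited. After centring all 5 were, Ndc80 and Cenpf among them, beside 14.3% and 44.7% of all genes on the deposited and centred scales.

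The spindle motors and microtubule proteins held the only member called higher in all 6 comparisons with control. Ckap2 (chr8:22168149-22185819) encodes a microtubule-stabilizing protein of the spindle and centrosome. Ckap2 stood at 7.06, 7.06 and 6.86 in the control libraries. With BMH-21, Ckap2 was 7.36, 7.60 and 7.42 at 2 h, 8.35, 8.06 and 8.11 at 4 h and 7.91, 7.74 and 7.98 at 8 h. With CX-5461, Ckap2 was 7.45, 7.19 and 7.24 at 2 h, 7.73, 8.05 and 7.77 at 4 h and 7.92, 7.85 and 7.84 at 8 h. All 18 treated libraries were above all 3 controls, with the highest values at 4 h of BMH-21. Ckap2 rose by 1.18 (SE 0.11, adjusted p 1.6e-19) at 4 h of BMH-21, 0.88 (SE 0.11, adjusted p 3.3e-13) at 8 h, and 0.88 (SE 0.11, adjusted p 1.6e-12) at 8 h of CX-5461. It was called higher in all 6 comparisons with control on both scales, although at 2 h of CX-5461 the deposited call was lost without control replicate 3 or CX-5461 replicate 1 (0.23 and 0.22, adjusted p 0.092 and 0.1). Its promoter, printed above, holds TTTGAA and CCAAT as those of many falling members do.

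Most other members of this role fell. Kif2c was 7.26, 7.28 and 7.05 in the control, 6.22, 6.00 and 6.20 after 8 h of BMH-21 and 7.06, 7.02 and 7.0 after 8 h of CX-5461. MCAK, the product of Kif2c, takes microtubules apart at centromeres. Kif2c fell at 8 h of BMH-21 (log2 fold change -1.06, SE 0.11, adjusted p 9.8e-17) and at 4 h of CX-5461 by -0.89 (SE 0.11, adjusted p 7.7e-13), and at 8 h of CX-5461 was -0.17 (adjusted p 0.18), or -0.39 (SE 0.032, adjusted p 1.8e-10) centred. The motor genes Kif11 and Kif4 were -0.23 and -0.69 at 8 h of BMH-21 and -0.60 and -0.86 at 4 h of CX-5461, and the fall of Kif11 with BMH-21 was -0.014 centred and no longer called. Tpx2, which activates Aurora A on the spindle, was -0.57 and -0.93 in the same comparisons, and Nusap1, a microtubule bundler, -0.56 and -0.96. Hmmr, a spindle assembly gene, was 0.031 at 8 h of BMH-21 (adjusted p 0.79) and 0.24 centred (adjusted p 1.8e-05), and -0.57 at 4 h of CX-5461 (adjusted p 1.7e-06).

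All 5 central spindle and cytokinesis genes fell on both scales at 8 h of BMH-21 and at 2 h and 4 h of CX-5461, beside 56.9%, 20.5% and 51.2% of all genes as deposited. Kif20a encodes a motor that carries the passenger complex to the central spindle. Kif20a stood at 7.88, 7.95 and 7.70 in the control libraries. With BMH-21, Kif20a was 7.46, 7.73 and 7.61 at 2 h, 7.23, 7.01 and 6.99 at 4 h and 6.64, 6.36 and 6.64 at 8 h. With CX-5461, Kif20a was 7.60, 7.41 and 7.43 at 2 h, 6.81, 7.09 and 6.95 at 4 h and 7.39, 7.39 and 7.31 at 8 h. The 3 lowest libraries were those at 8 h of BMH-21, and every 4 h and 8 h library was below the control. Kif20a changed by -1.30 (SE 0.11, adjusted p 2.9e-22) at 8 h of BMH-21 and -0.48 (SE 0.11, adjusted p 5.7e-05) at 8 h of CX-5461. Anln was 7.96, 7.98 and 7.79 in the control, 7.56, 7.10 and 7.44 after 8 h of BMH-21 and 7.98, 7.96 and 7.95 after 8 h of CX-5461. Anillin, the product of Anln, organizes the contractile ring. Anln fell at 4 h of CX-5461 (log2 fold change -0.94, SE 0.11, adjusted p 1.2e-13) and at 8 h of that inhibitor lay among the control values, at 0.055 (adjusted p 0.7), or -0.16 (SE 0.046, adjusted p 0.0036) centred. Leaving out control replicate 3 turned this deposited value to -0.0061. With BMH-21 at 8 h it was -0.54 (SE 0.11, adjusted p 3.1e-06), and quantile normalization gave 0.029. Prc1, which bundles the central spindle, was -0.64 at 8 h of BMH-21 and -1.18 at 4 h of CX-5461, Ect2, which switches on the contractile ring, -0.56 and -0.99, and Kif23 -0.70 and -0.66.

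The inhibitors were then compared directly at equal dose and time. At 2 h the members were higher with BMH-21 than with CX-5461 for 9 of 40 genes and lower for 0, beside 2.47% and 1.52% of all genes tested. At 4 h they were higher for 22 and lower for 0, beside 9.35% and 8.49%. Centring raised these to 20 and 34, still with 0 lower (background 7.83% and 27.4% higher, 7.58% and 18.5% lower). The members' median difference was 0.19 at 2 h and 0.32 at 4 h, against 0.092 and 0.057 for all genes, and their median percentile was 79.6 and 88.4. The count of 9 at 2 h fell to 1 without BMH-21 replicate 2 or CX-5461 replicate 2, to 4 without BMH-21 replicate 3 and to 2 without CX-5461 replicate 3.

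At 4 h the widest gap was in Aurka, at 7.31, 7.11 and 7.17 with BMH-21 but 6.42, 6.64 and 6.41 with CX-5461. These libraries did not overlap, and the difference was 0.71 (SE 0.10, adjusted p 4.6e-08) in the limma fit, the largest of the members at 2 h as well (0.51, SE 0.10, adjusted p 3.6e-04). Cdc20 and Ccnb1 followed among the named genes, at 0.51 (SE 0.10, adjusted p 6.7e-05) and 0.51 (SE 0.10, adjusted p 7.7e-05). Plk1 differed by 0.40 (SE 0.11, adjusted p 0.0037) and Cdk1 by 0.39 (SE 0.11, adjusted p 0.0041). Differences nearest to 0 were those of Aurkb, at 0.039 (SE 0.11, adjusted p 0.83), Kif2c, at 0.057 (SE 0.11, adjusted p 0.75), Mad2l1 at 0.068 (SE 0.11, adjusted p 0.7) and Mybl2 at 0.076 (SE 0.10, adjusted p 0.64). Single libraries decided some calls. Ckap2 (0.33) and Nuf2 (0.30) did not pass without BMH-21 replicate 1, CX-5461 replicate 1 or CX-5461 replicate 3, and Bub1b (0.37) did not pass without BMH-21 replicate 1 or CX-5461 replicate 1.

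At 8 h the deposited and centred scales part. As deposited, 31 members were lower with BMH-21 and 0 higher, beside 67.2% and 12.0% of all genes, and the members' median difference was -0.43 against -0.48 for all genes. After centring, 14 were lower and 14 higher, beside 40.6% and 31.1%, and the median percentile was 55.2. All 14 called lower after centring were also called lower as deposited, and they were Ccna2, Cdk1, Cdc25b, Mybl2, Plk1, Nek2, Aurkb, Bub3, Mad2l1, Espl1, Kif2c, Kif4, Kif20a and Anln. The largest of these were Mybl2 at -0.88 (SE 0.10, adjusted p 7.0e-14), Kif2c at -0.88 (SE 0.11, adjusted p 1.2e-12) and Mad2l1 at -0.86 (SE 0.11, adjusted p 4.2e-12), with centred values of -0.46, -0.46 and -0.43. Higher with BMH-21 after centring were Ccnb1, Bub1b, Ttk, Cdc20, Ube2c, Pttg1, Cenpa, Cenpe, Kif11, Tpx2, Hmmr, Nusap1, Ckap2 and Ect2. Pttg1 led these at 0.51 (SE 0.067, adjusted p 4.0e-07) centred and 0.085 (adjusted p 0.47) as deposited. Cdc20 was called in opposite directions, -0.22 (SE 0.10, adjusted p 0.038) as deposited and 0.20 (SE 0.043, adjusted p 2.1e-04) centred, and the deposited call was lost when any BMH-21 library was left out or without CX-5461 replicate 1 or 3.

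**Figure D4:**
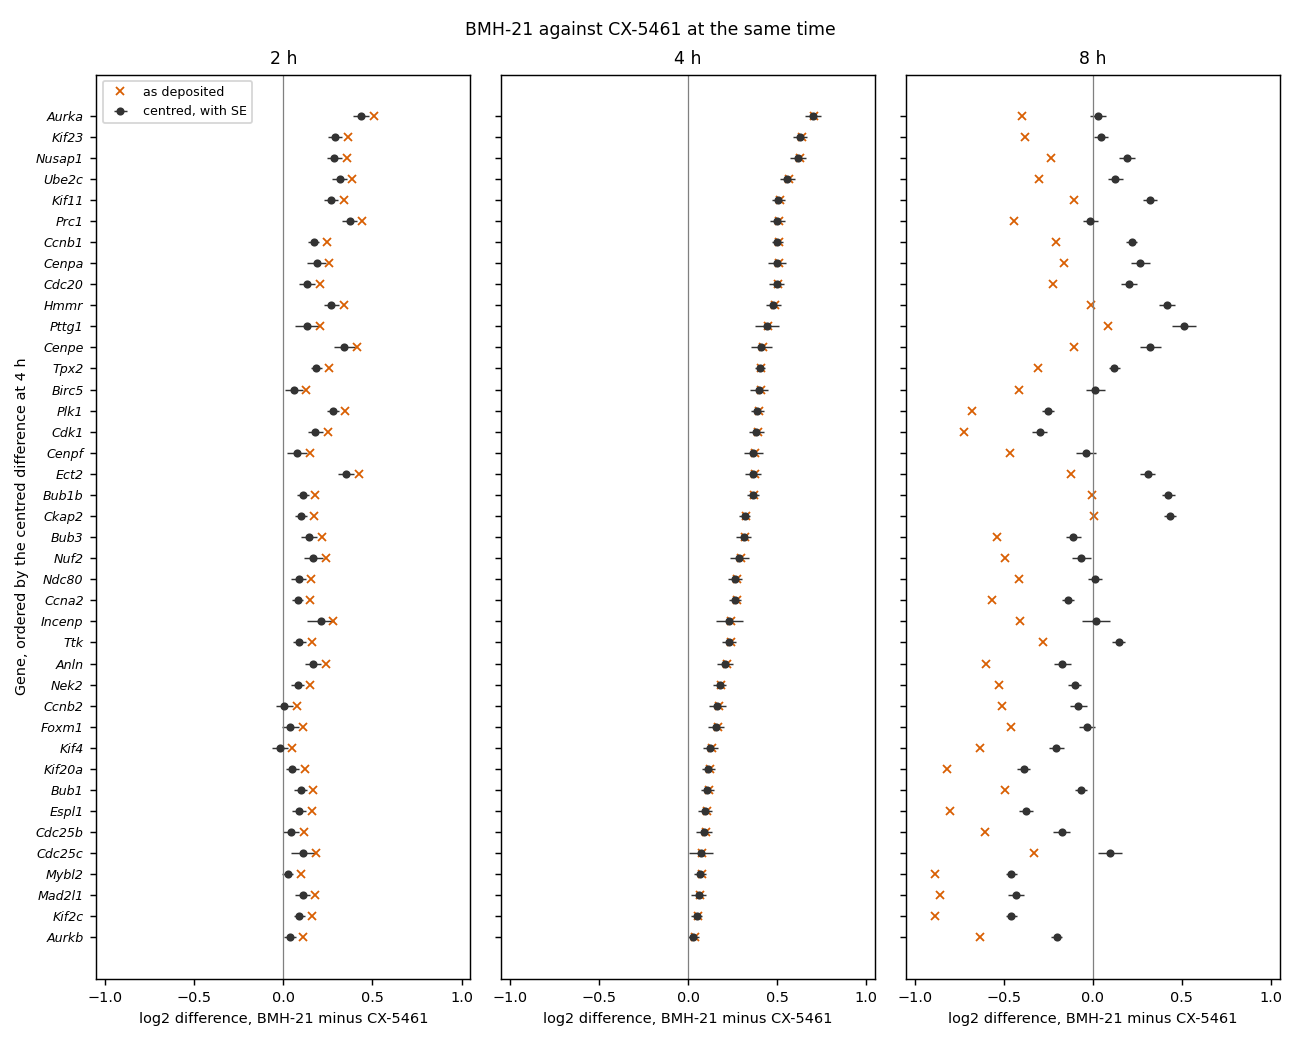
Log2 difference of BMH-21 minus CX-5461 (horizontal axis) for each of the 40 members (vertical axis) at 2, 4 and 8 h, with black points and bars for the centred value and its SE and orange crosses for the deposited value. At 2 h and 4 h no member was called lower with BMH-21 on either scale, and at 8 h the deposited values lie to the left of the centred ones.

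Each inhibitor was then compared with itself, 8 h against 4 h. With BMH-21, 21 of 40 were lower at 8 h than at 4 h and 0 higher, beside 37.8% and 18.6% of all genes, with a member median of -0.29 against -0.14. Mybl2 fell furthest (log2 fold change -0.68, SE 0.10, adjusted p 5.0e-09). After centring 26 were lower and 5 higher, beside 42.2% and 28.3%, and the higher ones were Foxm1, Hmmr, Prc1, Anln and Ect2. Anln was 0.18 as deposited (adjusted p 0.14) and passed without BMH-21 4 h replicate 1 or 8 h replicate 2 (0.27 and 0.32). With CX-5461, 36 were higher and 0 lower, beside 58.8% and 4.85%, with a member median of 0.43 against 0.34. After centring 18 were higher and 5 lower, beside 25.8% and 32.0%. Anln moved most, by 1.00 (SE 0.11, adjusted p 3.1e-14), followed among the named members by Plk1 (0.79), Kif2c (0.72) and Aurka and Foxm1 (0.68 and 0.68), each higher on both scales. Mybl2, Bub1b, Cdc20, Pttg1 and Ckap2 were lower after centring.

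Genes of the same pathway outside the set were read from lists drawn up for comparison. Of 65 other G2 and mitosis genes, all tested, 48 were lower and 7 higher at 8 h of BMH-21, beside 56.9% and 24.5% of all genes, and centred 43 and 12, beside 51.3% and 33.3%. At 8 h of CX-5461 18 were lower and 11 higher, beside 14.3% and 35.1%, and centred 50 and 7, beside 44.7% and 29.3%. At 4 h of CX-5461 49 were lower and 6 higher (51.2% and 19.8% of all genes), and at 2 h 38 and 5 (20.5% and 7.45%). At 4 h of BMH-21 44 were lower and 10 higher (44.9% and 22.1% of all genes). At 2 h of BMH-21 the counts were 11 and 6 as deposited (11.2% and 8.48%) and 22 and 10 centred (17.5% and 18.6%). Their median log2 fold change was -0.60 at 8 h of BMH-21 and -0.13 at 8 h of CX-5461, as deposited. The lowest at 8 h of BMH-21 were Pbk, a mitotic kinase gene, at -1.63, Lmnb1, for lamin B1, at -1.62, and Cep55, an abscission gene, at -1.45. At 8 h of CX-5461 Pbk was -0.76, the helicase gene Pif1 -0.73 and Lmnb1 -0.64. As Ckap2 did within the set, Fam83d, Kif18b and Psrc1, which act on the spindle and its microtubules, rose at 8 h of both inhibitors. Fam83d was 1.65 and 0.66, Kif18b 1.20 and 0.74, and Psrc1 1.19 and 0.99 with BMH-21 and CX-5461.

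The all-gene shares at 8 h, lower and higher, were 56.9% and 24.5% with BMH-21 (51.3% and 33.3% centred) and 14.3% and 35.1% with CX-5461 (44.7% and 29.3% centred). Beside them, of 13 genes of DREAM and the p53 and p21 axis, 10 were lower and 3 higher with BMH-21 (9 and 3 centred), and 2 were lower and 4 higher with CX-5461 (8 and 3 centred). Trp53, the p53 gene, was lowest at -1.38 and -0.68, and Rb1, the retinoblastoma gene, highest at 3.23 and 2.42, in the same order. Of 13 G2 checkpoint genes and p53 targets that act on G2, 6 were lower and 6 higher with BMH-21 (5 and 6 centred). With CX-5461 3 were lower and 7 higher (6 and 7 centred). Gadd45a, whose product inhibits CDK1, was -1.29 and Plk2 3.31 with BMH-21, and the checkpoint kinase gene Chek1 was -0.72 and Btg2 2.51 with CX-5461. In the anaphase-promoting complex, 10 of 15 genes were lower and 1 higher with BMH-21 (9 and 4 centred), and with CX-5461 1 was lower and 2 higher (9 and 1 centred). The difference of these counts from the shares of all genes was not tested. The inhibitor gene of the complex, Fbxo5, was -1.54 and -0.56 and the subunit gene Anapc2 0.37 and 0.32, though the last did not pass without control replicate 3 (0.24, adjusted p 0.068).

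Genes of DNA replication and the G1/S transition, which belong to an earlier wave of the cell cycle, moved too. Of 39, 3 were lower and 0 higher at 2 h of CX-5461, beside 20.5% and 7.45% of all genes. At 4 h the counts were 35 and 0, beside 51.2% and 19.8%. At 8 h they were 12 and 1, beside 14.3% and 35.1%, and centred 36 and 0, beside 44.7% and 29.3%. With BMH-21, 2 were lower and 1 higher at 2 h, 31 and 1 at 4 h, and 37 and 0 at 8 h, beside 11.2% and 8.48%, 44.9% and 22.1%, and 56.9% and 24.5%. At 2 h of CX-5461 their median was -0.15, beside -0.30 for the 40 G2 and mitosis genes and -0.18 for all genes. At 8 h of BMH-21 it was -0.82, beside -0.61 and -0.40. The difference between the lists was not tested. Ccne1, for cyclin E1, was -1.5 at 8 h of BMH-21, and Uhrf1 was -0.46 at 8 h of CX-5461. E2f1 was 0.25 there (adjusted p 0.044) and 0.033 centred, and the deposited call was lost when any 1 of the 6 libraries compared was left out.

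Finally, the members with TTTGAA in their promoter window were set beside those without it, as a description. The 22 with it had a median log2 fold change of -0.63 at 8 h of BMH-21, and the 11 without it -0.63. At 4 h of CX-5461 the medians were -0.71 and -0.57, and at 4 h of BMH-21 -0.35 and -0.33. The ranges overlapped in each, from -1.45 to 0.86 with it and -0.96 to -0.23 without it at 4 h of CX-5461. Both the member that fell furthest there, Plk1, and the one that rose, Ckap2, hold the letters. Among the members without TTTGAA, Ccnb1, Cdc25b, Birc5, Bub1, Pttg1 and Cenpe hold a variant CHR form, and 28 of the 33 hold some form. These medians therefore do not compare members with and without a CHR.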

How the data were processed

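Poly(A) RNA of 21 libraries was sequenced, and 1 table of log2 expression values was deposited by the authors. The table's name says that voom, a log2 transform of counts, was used. Per the submitters' processing notes, Trim Galore 0.5.0, TopHat2 2.1.1, R 4.0.5, DESeq2 1.30.1, edgeR 3.32.1, limma 3.46.0 and the build mm10 were listed, with no role or order. How the size factors in the values were made is not given in the sources used here. Taken as log2 of the read number plus 0.5, divided by a size for each library, the values came out as whole reads, at most 1.73e-08 from a whole number.

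Groups were taken from the titles, and columns were matched to samples by name. The log2 values were fitted in limma 3.58.1 (R 4.3.3) with 1 mean per group and a variance trend, for genes with a value above 0 in at least 3 of 21 libraries. Adjusted p-values are Benjamini-Hochberg over the 14666 genes, two-sided, at a threshold of 0.05, for 11 comparisons. The variance prior carried 111.5 degrees of freedom as deposited and 8.5 centred, and the replicates carried 14, which gives the spread of a single gene little weight on the deposited scale. Replicates differed beyond counting error (chi-square per degree of freedom 2.77 to 31.3). The script was tested on simulated data. The members and lists were chosen with earlier results of these data known. Named genes are the members fixed by name, the lowest and highest of each role at 8 h of BMH-21, and the extremes of each list at 8 h. In the lists, 5 genes were matched by an older symbol. Promoters came from RefSeq (GRCm38.p6), with 7 members not matched. Alternatives were other scalings, filters, offsets, variance models, voom weights, a fit to just the groups compared, a replicate block, and leaving out each library. Figures were drawn with matplotlib 3.10.9.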

Additional observations from a re-analysis of the deposited data

Results flagged for a closer look

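BMH-21 and CX-5461 were set against each other directly at the same time in the limma fit. As deposited, 9 of the 40 members stood higher under BMH-21 at 2 h and 22 at 4 h, beside 2.47% and 9.35% of all genes, and 0 were lower at either time. At 8 h 31 were lower and 0 higher, where 67.2% and 12.0% of all genes were. After centring 14 were lower and 14 higher at 8 h, beside 40.6% and 31.1%. Both 8 h comparisons with control share the control libraries, so they are not independent.

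Named genes that were lower with BMH-21 than with CX-5461 at 8 h on both scales are given with the deposited log2 difference first and the centred one in parentheses. They were Ccna2 -0.57 (-0.14), Cdk1 -0.73 (-0.30), Plk1 -0.68 (-0.25), Mybl2 -0.88 (-0.46), Cdc25b -0.60 (-0.18). Further ones were Nek2 -0.53 (-0.10), Aurkb -0.63 (-0.20), Mad2l1 -0.86 (-0.43), Espl1 -0.80 (-0.38), Kif2c -0.88 (-0.46), Kif20a -0.82 (-0.39), Anln -0.60 (-0.17). For Ccnb2, Aurka, Cdc20, Foxm1, Birc5 and Nuf2 the deposited call was not kept in that direction after centring. Their values were Ccnb2 -0.51 (-0.082), Aurka -0.40 (0.030), Cdc20 -0.22 (0.20), Foxm1 -0.46 (-0.032), Birc5 -0.41 (0.015), Nuf2 -0.49 (-0.065), and Cdc20 was called higher with BMH-21 after centring. Which scale is nearer to the amounts in the cells was not tested.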

How the results depend on the processing

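The results moved with the scaling of the libraries, whose origin was not tested, and at 2 h also with single libraries. Against the deposited factors stand centring, median-ratio factors and quantile normalization. Centring with robust variance gave the centred counts, and centring with the replicate block did so except where named and for BMH-21 against CX-5461 at 4 h (33 higher, where centring gave 34). Other alternatives were an offset of 5 reads, voom weights, a stricter filter or none, no variance trend, a fit of just the groups compared, a block for the replicate number, and each library left out in turn. They changed the counts of calls by at most 1.5 times except as given. The change was 1.5 times where the block took the 3 lower at 2 h of BMH-21 to 2, and where the block, or just the groups compared, took the 9 higher with BMH-21 than with CX-5461 at 2 h to 6. The direction of Plk1, Cdk1, Mybl2, Aurka and Kif20a against control at 8 h, and their calls, were the same under every alternative run.

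The members' median log2 difference moved from -0.35 to -0.20 centred, -0.15 by median ratio, -0.12 by quantile for 4 h of BMH-21 against control, from -0.29 to -0.094 by median ratio, 0.0018 by quantile for 8 h against 4 h of BMH-21, from -0.43 to -0.0011 centred, 0.061 by median ratio, 0.0041 by quantile for BMH-21 against CX-5461 at 8 h. It moved from -0.61 to -0.39 centred, -0.21 by median ratio, -0.11 by quantile for 8 h of BMH-21 against control, from -0.30 to -0.15 centred, -0.11 by median ratio, -0.12 by quantile for 2 h of CX-5461 against control, from -0.66 to -0.50 centred, -0.39 by median ratio, -0.34 by quantile for 4 h of CX-5461 against control. It also moved from 0.43 to 0.058 centred, 0.068 by median ratio, 0.15 by quantile for 8 h against 4 h of CX-5461. For 8 h of CX-5461 against control it moved from -0.20 to -0.42 centred, -0.30 by median ratio and -0.13 by quantile.

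Counts of members called moved as follows, from the deposited value. For 2 h of BMH-21 against control, 1 higher became 5 centred, 6 by median ratio, 3 by quantile and 3 lower became 8 centred and by quantile, 6 by median ratio, 1 without a filter, 0 without a variance trend, 7 centred with the replicate block. For 4 h of BMH-21 against control, 1 higher became 6 centred, 9 by median ratio, 11 by quantile. For 8 h of BMH-21 against control, 1 higher became 3 centred, 6 by median ratio, 8 by quantile and 35 lower became 20 by quantile. For 2 h of CX-5461 against control, 1 higher became 0 without a variance trend. For 4 h of CX-5461 against control, 1 higher became 2 centred and by median ratio and by quantile. For 8 h of CX-5461 against control, 2 higher became 1 centred, 5 by quantile and 14 lower became 36 centred, 34 by median ratio, 22 by quantile, 24 with only the groups compared. For BMH-21 against CX-5461 at 2 h, 9 higher became 20 centred, 15 by median ratio, 4 without a filter, 2 without a variance trend, 18 centred with the replicate block. For BMH-21 against CX-5461 at 4 h, 22 higher became 34 centred and 0 lower became 1 by quantile. For BMH-21 against CX-5461 at 8 h, 0 higher became 14 centred and by quantile, 16 by median ratio and 31 lower became 14 centred, 12 by median ratio, 13 by quantile. For 8 h against 4 h of BMH-21, 0 higher became 5 centred, 10 by median ratio, 14 by quantile and 21 lower became 13 by quantile. For 8 h against 4 h of CX-5461, 36 higher became 18 centred and by median ratio, 17 centred with the replicate block and 0 lower became 5 centred and by median ratio, 3 by quantile.

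Single genes changed sign, and the cause was not tested. For 8 h of BMH-21 against control, Anln (-0.54) was 0.029 by quantile, Aurkb (-0.35) was 0.043 by median ratio, 0.14 by quantile, Bub1b (-0.20) was 0.0083 centred, 0.19 by median ratio, 0.45 by quantile. Likewise, Cdc20 (-0.56) was 0.069 by quantile, Cenpe (-0.19) was 0.025 centred, 0.20 by median ratio, 0.33 by quantile, Foxm1 (-0.31) was 0.084 by median ratio, 0.072 by quantile. For 8 h of CX-5461 against control, Anln (0.055) was -0.16 centred, -0.043 by median ratio, Cdc25b (0.18) was -0.037 centred, Foxm1 (0.15) was -0.064 centred. For BMH-21 against CX-5461 at 2 h, Kif4 (0.050) was -0.021 centred, -0.044 by median ratio, -0.043 by quantile. For BMH-21 against CX-5461 at 4 h, Aurkb (0.039) was -0.026 by median ratio, -0.067 by quantile, Kif2c (0.057) was -0.0070 by median ratio, -0.020 by quantile, Mad2l1 (0.068) was -0.030 by quantile. Likewise, Mybl2 (0.076) was -0.078 by quantile. For BMH-21 against CX-5461 at 8 h, Aurka (-0.40) was 0.030 centred, 0.092 by median ratio, 0.049 by quantile, Birc5 (-0.41) was 0.015 centred, 0.077 by median ratio, 0.037 by quantile, Bub1b (-0.0031) was 0.42 centred, 0.49 by median ratio, 0.52 by quantile. Likewise, Ccnb1 (-0.21) was 0.22 centred, 0.28 by median ratio, 0.31 by quantile, Cdc20 (-0.22) was 0.20 centred, 0.27 by median ratio, 0.26 by quantile, Cenpe (-0.10) was 0.32 centred, 0.38 by median ratio, 0.37 by quantile. Likewise, Foxm1 (-0.46) was 0.030 by median ratio. For 8 h against 4 h of CX-5461, Ckap2 (0.020) was -0.35 centred, -0.34 by median ratio, -0.21 by quantile.

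With each library left out in turn, the counts that moved by over 1.5 times ranged from 0 to 5 lower for 2 h of BMH-21 against control (reported 3), from 1 to 11 higher for BMH-21 against CX-5461 at 2 h (reported 9), from 1 to 2 higher for 4 h of BMH-21 against control (reported 1), from 0 to 1 higher for 8 h against 4 h of BMH-21 (reported 0). They ranged from 0 to 1 higher for 2 h of CX-5461 against control (reported 1), from 12 to 32 lower for 2 h of CX-5461 against control (reported 24), from 1 to 2 higher for 8 h of CX-5461 against control (reported 2), from 9 to 20 lower for 8 h of CX-5461 against control (reported 14). Values near 0 changed sign with 1 library left out, and ranged as follows, Anln from -0.0061 to 0.089 for 8 h of CX-5461 against control, Aurkb from -0.033 to 0.12 for BMH-21 against CX-5461 at 4 h, Bub1b from -0.081 to 0.095 for BMH-21 against CX-5461 at 8 h, Cenpe from -0.19 to 0.049 for BMH-21 against CX-5461 at 8 h, Ckap2 from -0.044 to 0.076 for BMH-21 against CX-5461 at 8 h, Ckap2 from -0.040 to 0.12 for 8 h against 4 h of CX-5461, Kif2c from -0.013 to 0.15 for BMH-21 against CX-5461 at 4 h, Kif4 from -0.0021 to 0.13 for BMH-21 against CX-5461 at 2 h, Mad2l1 from -0.033 to 0.16 for BMH-21 against CX-5461 at 4 h, Pttg1 from -0.059 to 0.075 for 8 h of BMH-21 against control.

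Replicate numbers are shared between groups, but the labels name no shared culture or day. Over 63 same-numbered pairs the correlation of deviations from the group means ran from -0.25 to 0.11, with 1 over 0.1. Over 126 pairs with different numbers it ran from -0.26 to 0.38, with 14 over 0.1. These correlations cannot tell whether same-numbered samples shared a culture or day. With the replicate number as a block, limma called 34 members lower at 8 h of BMH-21 and 13 at 8 h of CX-5461. The block ended 3 calls among the named results, Ccna2 at 8 h of CX-5461 (-0.25, adjusted p 0.052), E2f1 there (0.25, adjusted p 0.056) and Nuf2 for BMH-21 against CX-5461 at 4 h (0.30, adjusted p 0.062). Depth did not limit the members, of which the lowest held 645 reads in a library, and 3 libraries per group limit the precision, with standard errors of 0.10 to 0.12 as deposited and 0.030 to 0.076 centred.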

Other observations

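Among the 65 other G2 and mitosis genes, Gtse1, Kif18b, Fam83d and Psrc1 were called higher than control by limma in all 6 comparisons, as deposited and centred, as Ckap2 was among the 40 members. Gtse1 encodes a microtubule-binding protein that acts in G2 and is known to restrain p53. Gtse1 was 7.76, 7.75 and 7.62 in the control, 8.62, 8.38 and 8.67 after 8 h of BMH-21 and 8.27, 8.21 and 8.21 after 8 h of CX-5461, on the deposited log2 scale. Both 8 h groups lay above the control without overlap, with log2 fold changes of 0.84 and 0.52. The share of all genes called higher in all 6 comparisons is not given here, so these genes cannot be set against it. In single comparisons 7.45% to 35.1% of all genes were called higher as deposited, and all 6 share the control libraries. These genes were singled out after their values were seen.

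Rbl2, the gene of an RB-like protein in the DREAM complex, was called higher in the same 6 comparisons on both scales. It was 2.91, 2.95 and 2.52 in the control, 4.87, 4.53 and 5.10 after 8 h of BMH-21 and 4.18, 4.06 and 4.17 after 8 h of CX-5461, and its log2 fold changes were 2.04 and 1.34. E2f4, which pairs with it in the complex, was -1.38 and -0.37 and was called lower at 8 h of both inhibitors. Most genes of the list of DREAM and the p53 and p21 axis, Rbl1 for another RB-like protein among them, were called lower at 8 h of BMH-21 as deposited. Rbl2 and E2f4 were chosen after their values were seen.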
